A study of Homo sapiens with 2 samples.

Results

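The kinesin genes of NUGC4 cells were described on expression arrays of a culture given an siRNA against ANO5 and a culture given a control siRNA. The members are all genes of the deposited table whose symbol begins with KIF or KIFC followed by a digit, or with KLC followed by a digit, with no filter on level. The rule found 43 of 14526 named genes: 12 mitotic kinesins, 30 other kinesins and kinesin light chains, and KIF25-AS1, an antisense RNA that encodes no motor and matches by its symbol alone. Each of the 43 genes had 1 transcript cluster, the group of probes by which the array reads a gene. NUGC4 is a human gastric cancer cell line. The siRNAs, a Stealth RNAi duplex against ANO5 and the maker's negative control duplex, were each given 24 h after the cells were seeded, at 20 nmol/l, according to the labels' protocols. The study asks about ANO5 (anoctamin 5, a membrane protein) and the cell cycle. Each group is 1 array of RNA from cells of the same line given 1 siRNA sequence, so there is no spread between replicates, no error and no test, and precision is limited by the number of arrays. Every difference below is ANO5 siRNA minus control siRNA on the deposited log2 scale and compares 2 RNA samples. "Higher" and "lower" describe this pair only.

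Kinesins are motor proteins that use ATP to move along microtubules or to take them apart at their ends. Mitotic kinesins build the spindle, move chromosomes and help to complete cytokinesis, and the RNAs of many of them are made mainly in late S phase, G2 and mitosis, so that dividing cells carry more of them. Transport kinesins work throughout the cell cycle: they carry vesicles, mitochondria and other cargo toward the cell surface, and some carry parts along the cilium. In a bulk RNA sample, fewer cells in a phase and less RNA per cell cannot be told apart.

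ANO5 itself read 3.67 in the ANO5 siRNA array and 6.83 in the control array, a log2 difference of -3.16, with the knockdown value near the low end of its array. Its mean lies below the 33rd percentile of gene means, and adding 32 to the linear signal took the difference to -1.70. The median over all clusters was 7.68 in the ANO5 siRNA array and 7.69 in the control array. Of the epithelial markers looked up, EPCAM read 17.04 in the ANO5 siRNA array and 16.63 in the control array, and KRT8 read 17.37 in the ANO5 siRNA array and 17.06 in the control array. TFF1, a product of gastric surface mucous cells, was low in both arrays, at 4.98 after ANO5 siRNA and 4.22 after control siRNA. Of the epithelial markers 9 of 10 were in the table, with 5 of the 9 (55.6%) higher and 0 lower by 1.5-fold. Among all named genes 18.6% were higher and 16.6% lower. The 5 were CDH1, TFF1, MUC1, KRT19 and CEACAM5, so EPCAM and KRT8 were not among them. TFF1 lay below the 33rd percentile of gene means. The other 8 lay above it, where 23.2% of all named genes were higher by 1.5-fold. Of the markers of other cell types in the table (3 of fibroblasts, 4 of blood and 1 of endothelium), 0 differed by 1.5-fold. Among these, COL1A2 (7.92 after ANO5 siRNA, 8.03 after control siRNA), CD68 (7.34 after ANO5 siRNA, 7.66 after control siRNA) and VWF (7.66 after ANO5 siRNA, 7.14 after control siRNA) lay above 6.05, the 33rd percentile of gene means. PTPRC, the pan-leukocyte marker, read 3.49 in the ANO5 siRNA array and 3.68 in the control array.

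The promoters of most mitotic kinesins hold short sequences known from genes of G2 and mitosis, and are shown before the values. Members and motifs were both chosen with earlier results of these data known, so the matches are no independent evidence. CHR, the cell cycle genes homology region, is an element bound by the DREAM and MYB-MuvB complexes in many genes of G2 and mitosis, and often lies close to a CCAAT box, which NF-Y binds. Below are the bases from 150 before to 30 after the annotated start, from RefSeq (GRCh38.p14), 5′ to 3′ on the gene's strand. Capitals mark a match to TTTGAA or TTTAAA (CHR) or to CCAAT (NF-Y box). A match on the opposite strand reads TTCAAA or ATTGG. The genes are 4 mitotic kinesins with different roles and 2 transport kinesins that were higher after ANO5 siRNA.
KIFC1, chr6:33391673-33391852, plus strand: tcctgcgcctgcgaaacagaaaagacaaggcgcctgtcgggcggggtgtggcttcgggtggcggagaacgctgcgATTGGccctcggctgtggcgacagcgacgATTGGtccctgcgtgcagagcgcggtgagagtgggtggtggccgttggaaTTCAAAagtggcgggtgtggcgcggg
KIF2C, chr1:44739687-44739866, plus strand: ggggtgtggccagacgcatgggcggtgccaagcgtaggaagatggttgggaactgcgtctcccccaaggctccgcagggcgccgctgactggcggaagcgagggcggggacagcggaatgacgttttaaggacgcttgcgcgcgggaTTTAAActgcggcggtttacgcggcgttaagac
KIF4A, chrX:70289954-70290133, plus strand: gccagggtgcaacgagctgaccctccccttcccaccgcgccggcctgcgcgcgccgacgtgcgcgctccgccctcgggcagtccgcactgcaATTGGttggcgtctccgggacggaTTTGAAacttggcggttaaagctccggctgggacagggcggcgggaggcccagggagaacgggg
KIF20A, chr5:138178962-138179141, plus strand: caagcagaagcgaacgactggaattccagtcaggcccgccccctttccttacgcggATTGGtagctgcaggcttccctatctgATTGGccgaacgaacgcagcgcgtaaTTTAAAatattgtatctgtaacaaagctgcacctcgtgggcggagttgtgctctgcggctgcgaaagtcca
KIF5B, chr10:32056396-32056575, minus strand: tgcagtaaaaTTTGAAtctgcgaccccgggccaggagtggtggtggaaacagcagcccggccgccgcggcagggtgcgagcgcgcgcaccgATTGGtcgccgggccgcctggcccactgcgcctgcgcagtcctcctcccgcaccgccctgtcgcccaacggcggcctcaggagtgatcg
KIF3A, chr5:132737517-132737696, minus strand: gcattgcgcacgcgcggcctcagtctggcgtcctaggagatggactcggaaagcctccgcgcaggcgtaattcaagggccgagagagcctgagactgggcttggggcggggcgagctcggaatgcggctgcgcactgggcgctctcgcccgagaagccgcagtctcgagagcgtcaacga

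All 12 mitotic kinesins were lower by at least 1.5-fold in the ANO5 siRNA array. Among all 14526 named genes, 16.6% were lower by 1.5-fold. All 12 lay in the measured range, the 9735 genes with a mean of both arrays at or above the 33rd percentile (6.05), and among those genes 20.1% were lower by 1.5-fold. At 2-fold, 10 of the 12 were lower, beside 8.35% of all named genes. The median difference of the mitotic kinesins was -1.73 (3.31-fold lower), beside 0.03 for all named genes and 0.07 for those in the measured range. The SD over the 12 members was 0.57, which is a spread between genes and not between cultures. The highest of the 12 differences was -0.88.

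**Figure D1:**
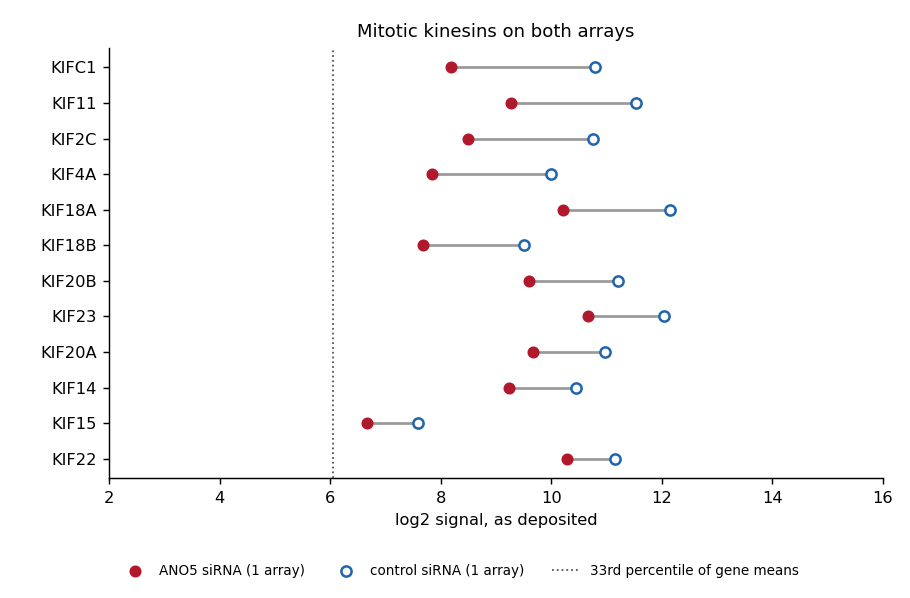
Log2 signal (horizontal axis) of the 12 mitotic kinesins in the ANO5 siRNA array (filled points) and the control siRNA array (open points), 1 array each, ordered by difference from KIFC1 (-2.61) to KIF22 (-0.88). Every filled point lies left of its open point, and every point lies right of the dotted line at 6.05, the 33rd percentile of gene means.

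The motors that set up the spindle's poles and keep it bipolar included the lowest difference of the family. KIFC1, a minus-end motor that bundles and focuses spindle microtubules and clusters extra centrosomes, read 8.19 in the ANO5 siRNA array and 10.80 in the control array (6.11-fold lower). KIF11 (Eg5), the motor that pushes spindle poles apart, read 9.28 in the ANO5 siRNA array and 11.54 in the control array (4.79-fold lower). KIF15, which can hold the spindle bipolar when KIF11 is blocked, read 6.67 in the ANO5 siRNA array and 7.59 in the control array (1.89-fold lower). These motors share a task, and their differences spanned -2.61 to -0.92. A difference at or below that of KIFC1 was found in 0.861% of the named genes, and one at or below that of KIF15 in 9.42%.

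The motors that act on microtubule ends and chromosome alignment differed by similar amounts. KIF2C (MCAK), which takes microtubules apart at the centromere and corrects wrong attachments, read 8.50 in the ANO5 siRNA array and 10.76 in the control array (4.79-fold lower). KIF18A, which damps the swinging of chromosomes at the metaphase plate, read 10.21 in the ANO5 siRNA array and 12.15 in the control array (3.84-fold lower). KIF18B, which acts on the plus ends of astral microtubules, read 7.68 in the ANO5 siRNA array and 9.51 in the control array (3.56-fold lower). All 3 lay between -2.26 and -1.83.

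The motors that bind chromosome arms were further apart. KIF4A, which works with PRC1 at the anaphase midzone and with condensin on chromosomes, read 7.84 in the ANO5 siRNA array and 10.00 in the control array (4.47-fold lower). KIF22 (Kid), which pushes chromosome arms away from the poles, read 10.28 in the ANO5 siRNA array and 11.16 in the control array (1.84-fold lower). KIF22 thus stayed within 2-fold, as KIF15 did.

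The motors of the central spindle and cytokinesis lay close together, at -1.62 to -1.20. KIF20B, which helps the midbody to complete abscission, read 9.59 in the ANO5 siRNA array and 11.21 in the control array (3.07-fold lower). KIF23 (MKLP1), the motor subunit of centralspindlin, read 10.67 in the ANO5 siRNA array and 12.05 in the control array (2.60-fold lower). KIF20A (MKLP2), which brings the chromosomal passenger complex with Aurora B to the midzone, read 9.67 in the ANO5 siRNA array and 10.97 in the control array (2.46-fold lower). KIF14, which recruits citron kinase to the midbody, read 9.24 in the ANO5 siRNA array and 10.44 in the control array (2.30-fold lower). All 4 were lower by more than 2-fold.

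The genes that work with these motors were lower too. Of 11 mitotic partners, all 11 were lower by 2-fold or more, with a median of -2.13, beside 8.35% of all named genes lower by 2-fold. AURKB, the kinase of the chromosomal passenger complex, read 7.81 in the ANO5 siRNA array and 11.14 in the control array (10.1-fold lower). ECT2, which turns on RhoA for the contractile ring, read 11.67 in the ANO5 siRNA array and 14.25 in the control array (5.98-fold lower). BIRC5 (survivin), another passenger subunit, read 8.40 in the ANO5 siRNA array and 10.95 in the control array (5.86-fold lower). In 2 known pairs, picked as examples, the partner had the lower difference of the pair. Other pairs were not compared. The 11 partners ranged from -3.33 (AURKB) to -1.37 (AURKA), beside -2.61 to -0.88 for the mitotic kinesins. PRC1, the microtubule bundler that recruits KIF4A, differed by -2.52 beside -2.16 for KIF4A. RACGAP1, the other centralspindlin subunit, differed by -2.22 beside -1.38 for KIF23. CENPE, the kinetochore motor of the kinesin-7 family whose symbol lies outside the rule, differed by -1.41.

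The 30 other kinesins and light chains did not share a direction. By 1.5-fold, 7 were higher and 3 lower, and 20 lay within that size. Among all named genes 18.6% were higher by 1.5-fold, so over all 30 members 7 higher (23.3%) is near the background. The 3 lower (10.0%) stand beside 16.6%. At 2-fold, 6 of the 30 were higher, beside 8.33% of all named genes. All 6 lay in the measured range, where 1086 of the 9735 genes were higher by 2-fold. The median of the 30 was 0.08, and the mitotic median lay 1.80 below it (a difference of -1.80). In the measured range were 21 of the 30, and 9 lay below it. The 7 higher members were all among those 21 (33.3%), beside 23.2% higher by 1.5-fold among all genes in that range. Of the 21, 1 was lower (4.76%), beside 20.1%. The highest mitotic difference was lower than the difference of each of the 21. Over all 30 others the exception was KIF26B, a gene near the low end of both arrays. A difference at or below that highest mitotic one (-0.88, KIF22) was found in 10.1% of all named genes.

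**Figure D2:**
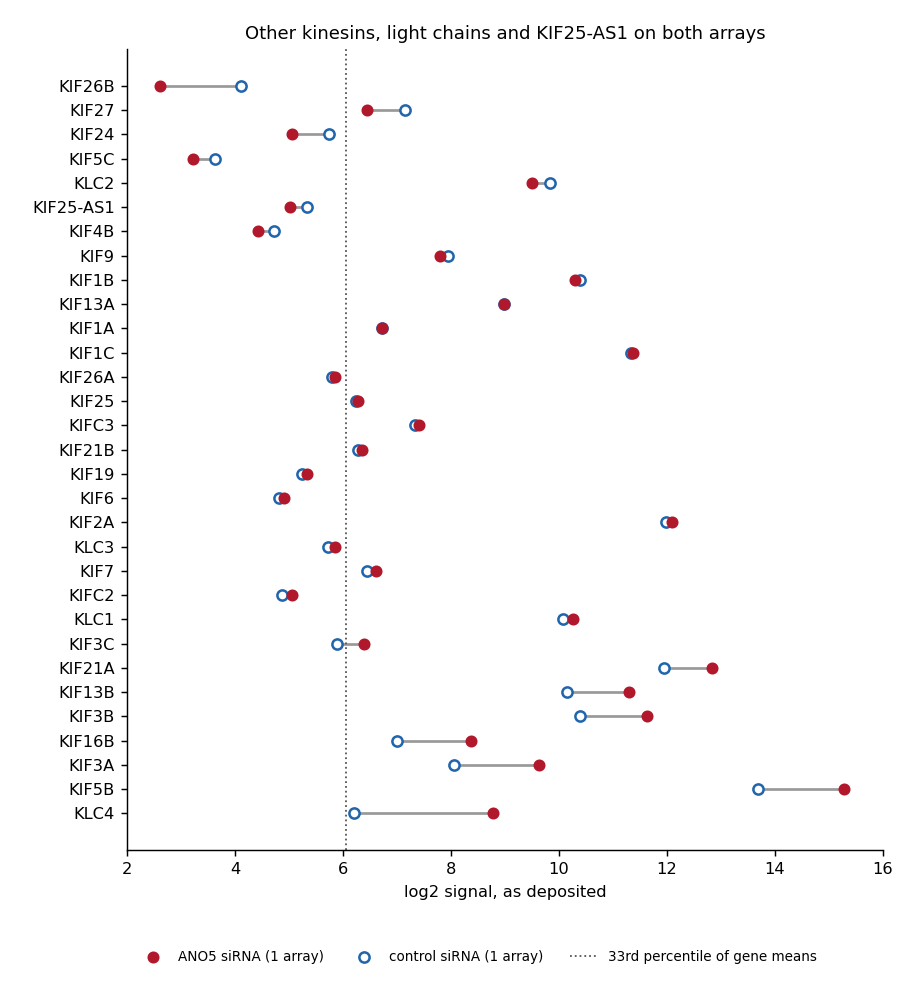
Log2 signal (horizontal axis) of the 30 other kinesins and light chains and of KIF25-AS1 in the ANO5 siRNA array (filled points) and the control siRNA array (open points), 1 array each, ordered by difference from KIF26B (-1.49) to KLC4 (2.57). Most pairs of points overlap or nearly touch. The 7 genes at the foot, from KIF21A down, have the filled point well to the right.

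KLC4 and KIF5B, a light chain and a heavy chain of the conventional transport motor, had the highest differences of the 43 members. KIF5B, the ubiquitous heavy chain of kinesin-1 that carries mitochondria, lysosomes and other cargo, read 15.29 in the ANO5 siRNA array and 13.69 in the control array (3.03-fold higher). Its neuronal relative KIF5C, whose cluster the annotation pairs with a non-coding transcript, was near the low end of both arrays, at 3.21 after ANO5 siRNA and 3.63 after control siRNA. Light chains bind cargo to the heavy chains. KLC4 read 8.77 in the ANO5 siRNA array and 6.20 in the control array (5.94-fold higher), and this control value is close to the lower limit of the measured range, so that its fold may be bounded by background. The other light chains differed little: KLC1 read 10.26 in the ANO5 siRNA array and 10.08 in the control array, KLC2 differed by -0.34, and KLC3, below the measured range, by 0.12.

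The heterotrimeric kinesin-2 motor carries material along the cilium and some vesicles in the cytoplasm. Of the 3 kinesin-2 motor genes in the table, 2 were higher by 1.5-fold, beside 18.6% of all named genes. All 3 lay in the measured range, where 23.2% of genes were higher. This count is too small to read as a result of the family. KIF3A read 9.63 in the ANO5 siRNA array and 8.06 in the control array (2.97-fold higher). KIF3B read 11.64 in the ANO5 siRNA array and 10.39 in the control array (2.38-fold higher). KIFAP3, the non-motor subunit, whose symbol lies outside the rule, read 11.48 in the ANO5 siRNA array and 9.74 in the control array (3.34-fold higher). KIF3C, which can take the place of KIF3B, differed by 0.51, short of 1.5-fold.

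In the kinesin-3 family, 2 of the 6 members outside the mitotic list were higher by 1.5-fold, beside 18.6% of all named genes. The family lay in the measured range, where 23.2% of genes were higher. This count is too small to read as a result of the family. KIF16B, which moves early endosomes, read 8.36 in the ANO5 siRNA array and 6.99 in the control array (2.58-fold higher). KIF13B, a vesicle motor, read 11.29 in the ANO5 siRNA array and 10.15 in the control array (2.20-fold higher). The vesicle motors KIF1A, KIF1B, KIF1C and KIF13A differed by 0.00, -0.09, 0.04 and 0.00. KIF14, counted above with the mitotic motors, belongs to the same family by sequence and differed by -1.20.

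The kinesin-4 family, to which KIF4A belongs, also held members of both directions. KIF21A, which slows microtubule growth at the cell cortex, read 12.84 in the ANO5 siRNA array and 11.95 in the control array (1.85-fold higher). KIF27, a relative of the ciliary Hedgehog regulator KIF7, read 6.45 in the ANO5 siRNA array and 7.14 in the control array (1.61-fold lower), a difference that came to -0.54, within 1.5-fold, when 32 was added to the linear signal. KIF7 and KIF21B differed by 0.16 and 0.07. KIF4B, an intronless copy of KIF4A with nearly the same sequence, read 4.43 in the ANO5 siRNA array and 4.72 in the control array, beside -2.16 for the difference of KIF4A. Probes of such copies may share signal, so both values are uncertain.

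The remaining members were mostly within 1.5-fold. KIF2A, a microtubule depolymerase of the same family as KIF2C that also works outside mitosis, read 12.09 in the ANO5 siRNA array and 11.98 in the control array, a difference of 0.11 beside -2.26 for KIF2C. KIF24, a depolymerase of the mother centriole that holds back cilium formation, read 5.06 in the ANO5 siRNA array and 5.73 in the control array (1.59-fold lower). KIF26B read 2.61 in the ANO5 siRNA array and 4.10 in the control array (2.81-fold lower), and only 0.0749% of clusters of the ANO5 siRNA array read as low. KIF24 and KIF26B lie below the measured range, where background may set these folds. KIF6, KIF9, KIF19, KIF25, KIF26A, KIFC2 and KIFC3 lay between -0.16 and 0.18. The antisense RNA KIF25-AS1, below the measured range, read 5.01 in the ANO5 siRNA array and 5.33 in the control array.

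**Figure D3:**
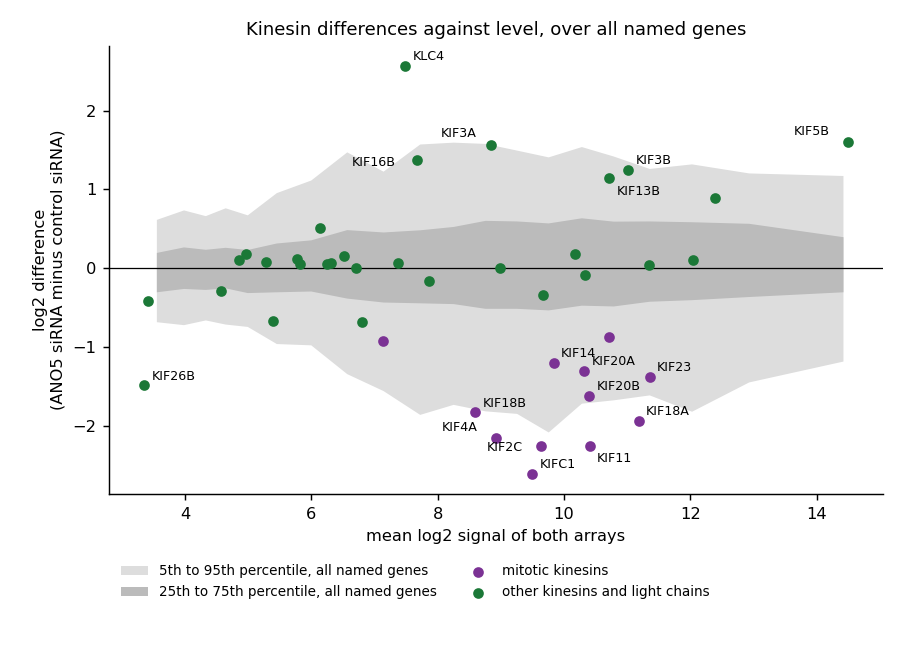
Log2 difference, ANO5 siRNA minus control siRNA (vertical axis), against the mean log2 signal of both arrays (horizontal axis) for the 12 mitotic kinesins and the 30 other kinesins and light chains. Grey bands give percentiles of all 14526 named genes in 20 bins of level. The mitotic kinesins fill the space from -0.88 to -2.61, the other members mostly lie near 0, and genes beyond 2-fold are named.

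The lists of other transport genes held members of both directions. Of 15 genes listed as cargo adaptors and regulators of transport kinesins, 5 were higher and 2 lower by 1.5-fold, with a median of 0.40. The 5 include KIFAP3, the kinesin-2 subunit given above. Among all named genes 18.6% were higher and 16.6% lower. In the measured range, which holds 12 of the 15, these shares were 23.2% and 20.1%. KIDINS220, which can be carried by kinesin-1, read 11.96 in the ANO5 siRNA array and 10.00 in the control array (3.89-fold higher). TRAK2, which links kinesin-1 to mitochondria, read 10.90 in the ANO5 siRNA array and 9.17 in the control array (3.32-fold higher). SPAG9, a scaffold that joins motors to cargo, was 1.88-fold higher. Its list mate TRAK1, also a mitochondrial adaptor, differed by 0.40 and so stayed short of 1.5-fold. CNTRL, a centriole protein and below the measured range, was 2.17-fold lower, and KTN1 (kinectin), a kinesin receptor on the endoplasmic reticulum, was 1.78-fold lower.

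Dynein moves cargo the opposite way along microtubules, with dynactin as its cofactor. Of its 21 genes in the table, 8 were higher and 1 lower by 1.5-fold, with a median of 0.30. This is 38.1% higher, beside 18.6% of all named genes and 23.2% of those in the measured range. That range holds 19 of the 21, and DYNC2H1, among the 8 higher genes, lies below it. DYNC1H1, the heavy chain, read 11.69 in the ANO5 siRNA array and 10.61 in the control array (2.11-fold higher). The dynactin subunit DCTN5 was 1.92-fold higher, and the regulators PAFAH1B1 (LIS1) and NDEL1 were 1.91-fold and 1.88-fold higher. DYNLL1, a light chain shared with many other complexes, read 13.18 in the ANO5 siRNA array and 14.36 in the control array (2.27-fold lower).

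**Figure D4:**
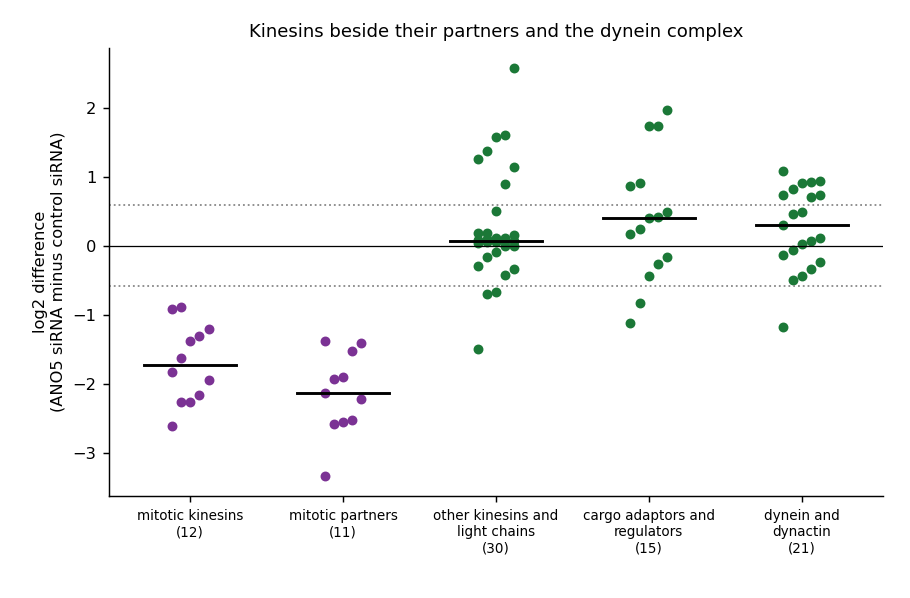
Log2 difference, ANO5 siRNA minus control siRNA (vertical axis), of each gene in 5 lists, with the number of genes in brackets. Black bars are medians (-1.73, -2.13, 0.08, 0.40 and 0.30 from left to right), and dotted lines mark 1.5-fold. Points of both mitotic lists all lie below the lower dotted line, and those of the other 3 lists lie on both sides of 0.

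The promoters were then searched for the motifs over windows from 250 bases before to 50 after each annotated start, on both strands. All 12 mitotic kinesins and 21 of the 30 others had a window in the RefSeq table, and some genes had several. TTTGAA or TTTAAA was found in 11 of 12 mitotic kinesin genes (11 of 13 windows), KIF22 being the exception, and in 3 of the 21 other genes (3 of 28 windows). Of 16842 windows of genes on the array 18.5% held it. CCAAT was found in 10 of the 13 mitotic windows and 8 of the 28 others, beside 34.8% of the windows of array genes. Both kinds occurred together in 9 mitotic windows and 2 of the 28 others (KIF4B and KIF5B), beside 7.32% of the windows of array genes. The E2F core GCGGGAA was in 0 mitotic windows and 3 others, beside 8.83%. The median share of G and C was 62.3% in mitotic windows and 68.5% in the other kinesins' windows, beside 63.7% in the windows of array genes.

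Positions of the matches give the base at the left end, counted from 0 at the annotated start. Of the 14 CHR matches in mitotic windows, 12 lay within 60 bases before the start or after it. The 14 CCAAT matches lay between -131 and -22. In the sequences printed above, KIF20A has its CHR match at -41 and CCAAT matches at -94 and -67, KIF4A has TTTGAA at -34 and CCAAT at -58, and KIF2C has TTTAAA at -3 with no CCAAT match. KIF5B, higher after ANO5 siRNA, also holds both kinds, with TTTGAA at -140 and CCAAT at -59, and KIF3A holds neither. KIF22, with the smallest difference of the mitotic kinesins, has no CHR match in either of its 2 windows, and KIF15, the next smallest, has 1 at -35 but no CCAAT. KIF2C, which lacks CCAAT too, differed by -2.26. A link between the motifs and the size of the differences was not tested. A match is a string of letters and shows no binding. With 12 genes chosen for a shared role, these shares are a description.

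**Figure D5:**
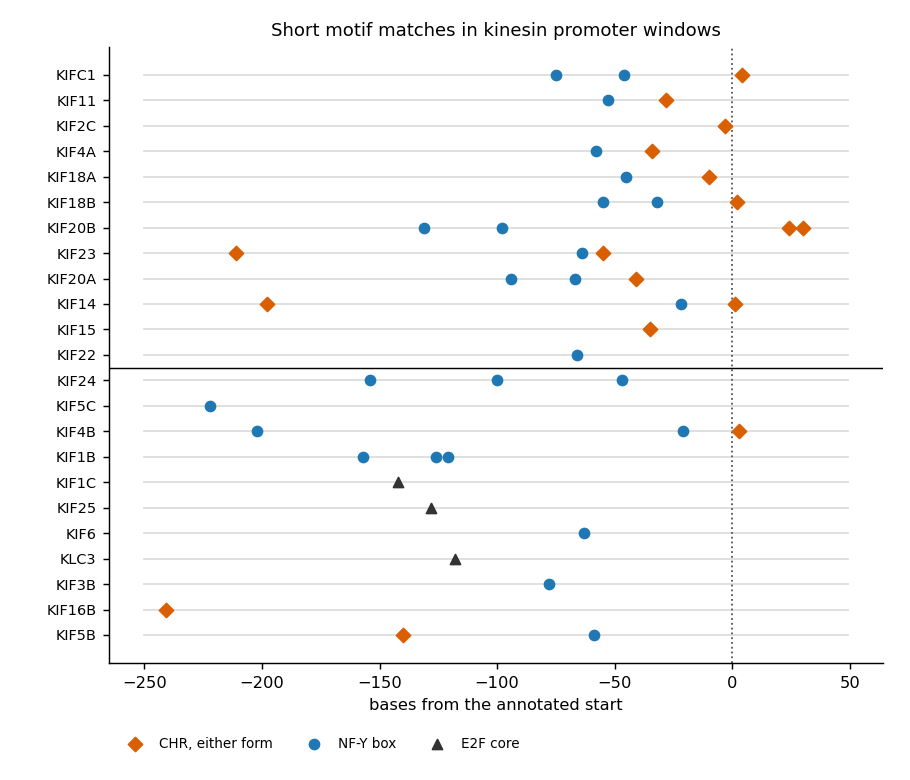
Distance of each motif match from the annotated start in bases (horizontal axis) for the 12 mitotic kinesins (above the black line) and for the 11 other kinesins with a match (below it), each group ordered by its difference from lowest to highest. Grey lines are the windows searched, and matches of a gene with several windows are drawn on 1 line. CHR matches (diamonds) of mitotic kinesins gather near the start, with NF-Y boxes (circles) before them.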

How the data were processed

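RNA of 2 cultures of NUGC4 cells was measured, with 1 array for each. The authors deposited 1 log2 value per transcript cluster. The log2 scale is inferred from the range of the values, and the log base, background correction, normalization and genome build were not given in the sources used here. Agilent Feature Extraction (12.0.3.1) appears in the submitters' processing notes, although the cluster names have a form used on another maker's arrays.

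Of 17345 clusters, 14544 had 1 gene symbol in the platform annotation, 0 several and 2801 none. This gave 14526 genes, taking the cluster with the highest mean. All 43 members matched a current Entrez record. The 75th percentiles of the named genes differed by 0.02, under the limit of 0.1 for rescaling, so values were used as deposited. Genes were called higher or lower by 1.5-fold or 2-fold. No detection call was used. Every mitotic kinesin and every other member past 1.5-fold was named, with up to 4 partners each way per list by size. A few further partners, such as RACGAP1, CENPE and TRAK1, were named for comparison. The members, lists, roles and motifs were chosen with earlier results of these data known. Alternatives were other scalings, level filters, a pseudocount, other folds, the mean and other member lists. The difference and count code was tested on simulated data. A planned search of protein sequences was not run. Python 3.11.15, numpy 2.4.6, pandas 2.3.3 and statsmodels 0.14.6 were used.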

Additional observations from a re-analysis of the deposited data

How the results depend on the processing

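No paired analysis was possible because each group holds 1 array, and no replicate could be left out. Under median centring, 75th percentile scaling, quantile normalization, loess and the mean over clusters, all medians stayed within 0.1 and all counts within 1.5 times. Kinesins have 1 cluster each, so the last could not move them. Adding 32 to the linear signal moved ANO5 to -1.70, the difference of the medians to -1.68 and the lower other kinesins from 3 to 0. It took KIF24 (-0.38), KIF26B (-0.37) and KIF27 (-0.54) within 1.5-fold. These 3 were the exceptions among 215 values of single kinesins under scalings and pseudocount, and 0 reversed. With the 33rd percentile filter 1 of 21 other kinesins was lower, beside 20.1% of all named genes in that range. With the 50th, which keeps 11 members of each kind, all 11 mitotic kinesins and 0 others were lower, and 5 others were higher. The medians were then -1.83 (mitotic) and 0.18 (other), a difference of -2.01. In the bins of level above the 50th percentile, 13.2% to 23.9% of all named genes were lower by 1.5-fold. In the same bins 17.4% to 26.7% were higher. At 2-fold 1 other kinesin was lower, beside 8.35% of all named genes. At 3-fold 7 mitotic kinesins and 0 others were lower, and 2 others higher, because the threshold itself changed. The share of all named genes past 3-fold was not counted, so these 3-fold counts have no background beside them. By the mean, the other kinesins stood at 0.27 and the difference was -1.96. With CENPE added, the mitotic median was -1.62 and the difference -1.70. Leaving out KIF2A, KIF24 and the light chains changed none of these counts by over 1.5 times. Of the scalings, loess moved the median of all named genes most, by -0.03.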
